A study of Drosophila melanogaster with 10 samples.

Results

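The JNK pathway genes followed here were the ligand gene egr, the receptor genes wgn and grnd, the kinase genes msn, slpr, hep and bsk, the transcription factor genes Jra and kay, and the phosphatase gene puc. They were taken by symbol, 10 of the 14292 genes to which the transcript rows of the deposited table were summed, and all 10 passed the level for testing (1 TPM or more in 5 or more libraries), as did 8722 genes in all. RNA came from midguts of adult Drosophila melanogaster males fed yeast alone and dissected 7 days after eclosion, kept at 25 °C with 12 h of light. Both groups carried the Dredd D44 mutation on the X chromosome and the mex-GAL4 driver. Dredd is the caspase of the IMD immune pathway, and mex-GAL4 drives expression in enterocytes, which are absorptive gut cells. The control group carried mex-GAL4 alone (mex-GAL4/+), and the overexpression group carried UAS-PGRP-LE in addition (mex-GAL4/UAS-PGRP-LE), which encodes a peptidoglycan receptor of the IMD pathway. Each group had 5 libraries, called biological replicates by the submitters, with RNA from 20 midguts. No group with intact Dredd was part of the comparison.

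JNK, the c-Jun N-terminal kinase, is a stress-activated MAP kinase at the end of a chain of kinases, each of which phosphorylates the next. In the fly, the TNF Eiger (egr) signals through the receptors Wengen (wgn) and Grindelwald (grnd). Upstream kinases such as Misshapen (msn) and Slipper (slpr) lead to Hemipterous (hep), the JNK kinase, and to Basket (bsk), the fly JNK. Basket phosphorylates Jun (Jra) and Fos (kay), which pair as AP-1, and a target of AP-1 is puckered (puc), whose phosphatase switches Basket off again. In the fly gut JNK is known for its activation in stressed enterocytes, where it leads to release of the cytokine Upd3 and to stem cell division, and in the IMD pathway the kinase Tak1 can also feed into JNK. Transcript levels do not report kinase activity, which was not measured.

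PGRP-LE itself lay between 35.9 and 41.8 TPM across controls and at 4257 to 5030 TPM in overexpression libraries, as its label says. Dredd transcripts lay between 21.9 and 26.5 TPM across controls and at 30.9 to 36.0 TPM in overexpression libraries, although both groups carry the mutation. TPM is a length-scaled abundance that sums to the same fixed total in each library. It keeps no record of how many reads were sequenced, and library depth is therefore unknown. The median log2 change of all genes tested was 0.09 in the TPM as deposited, with 3499 genes higher and 1991 lower, and -0.002 after median-of-ratios rescaling, with 2754 higher and 2716 lower. Enterocyte markers were abundant, with summed levels of 22484 to 25755 TPM in controls and 20215 to 22362 TPM in overexpression libraries. Most of that sum was the trypsin gene alphaTry, which fell from a mean of 20493 to 16099 TPM. Of the 8 enterocyte markers 6 rose and 2 fell, with a median log2 change of 0.57. The risers included the septate junction genes Tsp2A (1.96-fold), Ssk (1.79-fold) and mesh (1.73-fold) and also mex1 (means of 512 and 655 TPM), and Myo31DF fell (119 and 90.0 TPM). The call of mex1 ended under quantile normalization (limma adjusted p = 0.144). Summed levels of the other lists in controls and in overexpression libraries were 695 to 794 and 717 to 798 TPM for enteroendocrine cells, 2482 to 3089 and 2440 to 3080 TPM for visceral muscle, 102 to 118 and 75.7 to 77.6 TPM for haemocytes, and 314 to 452 and 278 to 372 TPM for Malpighian tubules. They were 31.7 to 37.6 and 29.3 to 34.2 TPM for trachea, 5.72 to 11.2 and 1.93 to 10.8 TPM for fat body, 6.18 to 7.31 and 4.59 to 5.81 TPM for neurons, and below 1 TPM in every library for the male reproductive tract. Single genes held most of some sums, crq with a mean of 98.3 TPM in controls for haemocytes and Irk2 with 289 TPM for Malpighian tubules. Irk2 was not called (limma adjusted p = 0.658), whereas Irk3 and ZnT35C, also of the tubule list, were called lower at log2 changes of -1.23 and -1.19 (limma adjusted p = 0.0259 and 0.0380). Control replicate 2 had the highest level of each of the 6 tubule markers except Irk2 among all 10 libraries, with 69.3 TPM of Uro and 46.9 TPM of Irk3. Of the haemocyte list, Hml, NimC1, eater, vkg and He stayed below 1 TPM in every library. Of the tested visceral muscle markers 4 of 9 were called lower and 0 higher, and of trachea markers 2 of 5 lower and 0 higher. Of enteroendocrine markers, 2 of 9 were higher and 1 lower. Of haemocyte markers 2 of 3 were lower and 0 higher, and of neuron markers 1 of 3 was higher and 1 lower. For comparison with these counts, 40.1% of all genes tested were called higher and 22.8% lower, 62.9% together.

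Of the 10 JNK pathway genes, 4 rose with PGRP-LE overexpression (msn, hep, bsk and puc), 3 fell (kay, wgn and grnd), and 3 (egr, slpr and Jra) were not called. "Rose" and "fell" mean an adjusted p under 0.05 by limma on log2(TPM + 1), adjusted by Benjamini-Hochberg over all 8722 genes. By that rule 62.9% of all genes tested were called, 40.1% as higher and 22.8% as lower, so the share of called members was near that of the transcriptome. The groups did not overlap for 4 members (msn, hep, bsk and kay), against 48.3% of all genes tested. The median log2 change of the 10 members was 0.08, and that of all genes tested was 0.09. The member with the largest change was msn, and 14.6% of all genes tested changed by more than it in either direction.

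**Figure D1:**
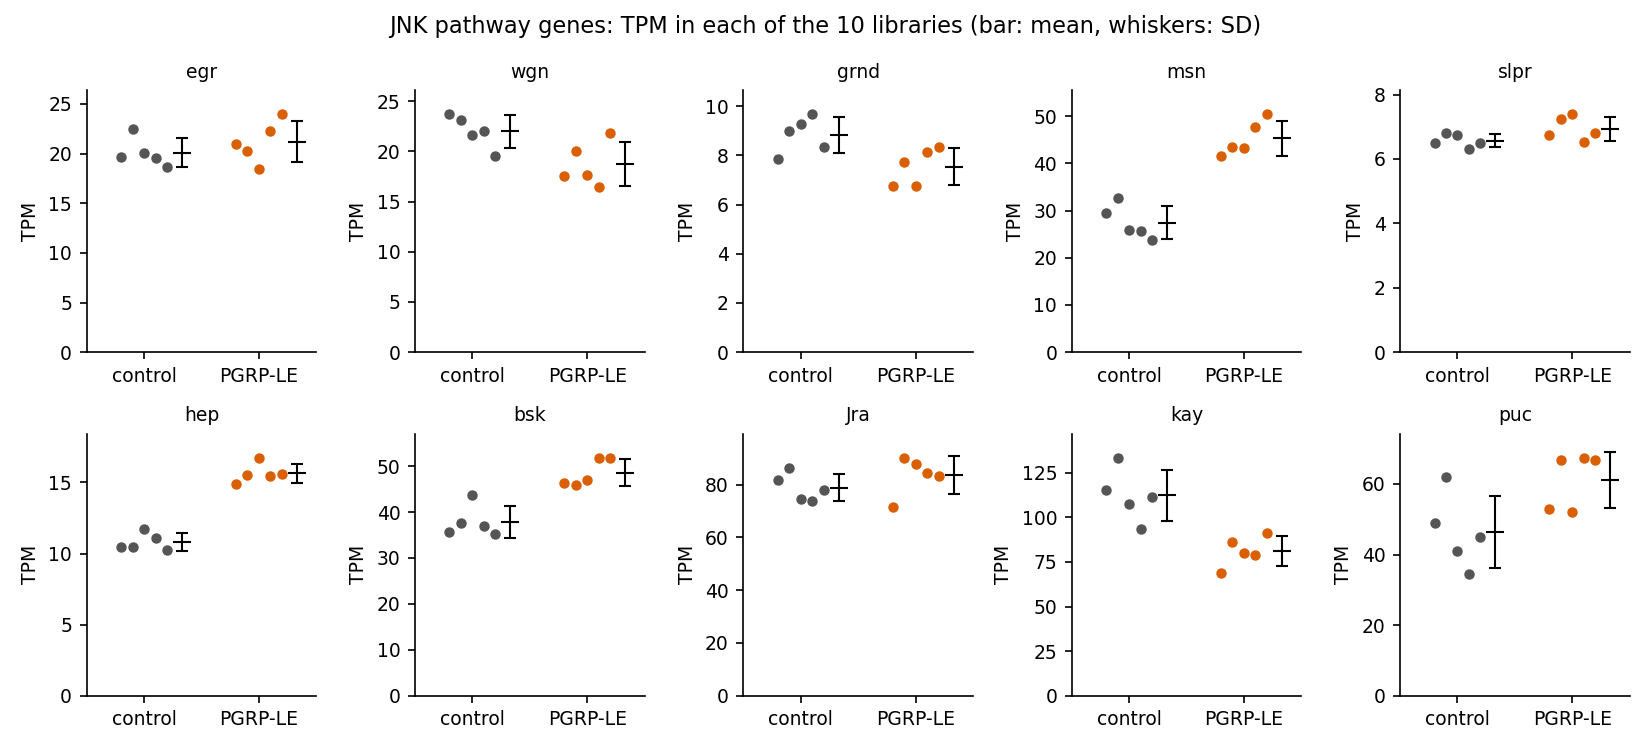
TPM of the 10 JNK pathway genes (one panel a gene, vertical axis from 0) in the 5 control libraries (grey) and the 5 libraries with PGRP-LE overexpression (orange), with the mean and SD beside each group. The groups lie apart for msn, hep, bsk and kay and overlap for the other members.

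Among the members, the clearest rises were those of the kinase genes msn, hep and bsk. msn (FBgn0010909, chromosome 3L, 2554847 to 2586540, minus strand) encodes a Ste20-family kinase at the top of the chain. Its level was 29.4, 32.6, 25.9, 25.6 and 23.8 TPM in control replicates 1 to 5 and 41.5, 43.5, 43.3, 47.7 and 50.4 TPM in overexpression replicates 1 to 5. Every overexpression library lay above every control, and the rise from 27.5 ± 3.50 to 45.3 ± 3.65 TPM (SD, n = 5) was 1.65-fold, a log2 difference of 0.71 ± 0.08 (SE; adjusted p = 1.53e-05, limma).

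hep (FBgn0010303, chromosome X, 13079205 to 13090434, minus strand) encodes the JNK kinase. Control libraries held 10.5, 10.5, 11.7, 11.1 and 10.2 TPM and overexpression libraries 14.9, 15.5, 16.7, 15.5 and 15.6 TPM. The groups stood far apart for their spread, with a log2 difference of 0.50 ± 0.05 (SE; adjusted p = 4.18e-06, limma), or 1.45-fold. bsk (FBgn0000229, chromosome 2L, 10247502 to 10250501, minus strand), the JNK gene itself, stood at 35.7, 37.5, 43.8, 37.1 and 35.1 TPM in controls and at 46.4, 45.9, 47.0, 51.8 and 51.8 TPM in overexpression libraries. Control replicate 3 was the highest control and still lay below all 5 overexpression libraries. The rise of bsk was 1.28-fold, a log2 difference of 0.35 ± 0.06 (SE; adjusted p = 4.91e-04, limma).

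The fourth kinase gene, slpr (FBgn0030018, chromosome X, 8170229 to 8177185, minus strand), encodes a mixed-lineage kinase that acts on Hemipterous. It lay between 6.30 and 6.81 TPM across controls and at 6.51 to 7.39 TPM in overexpression libraries, and the groups overlapped. Its log2 change was 0.07 with a 95% interval from -0.04 to 0.18 (limma adjusted p = 0.258). The interval leaves out a rise of the size estimated for bsk.

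Transcripts of progenitor cells were also higher in overexpression libraries. All 8 progenitor markers rose, also under each of the 3 rescalings tried (median-of-ratios, quantile and spike-in), and their summed level went from between 22.8 and 28.5 TPM in controls to between 72.7 and 92.0 TPM in overexpression libraries. Among them esg, a transcription factor of progenitors, had a log2 difference of 1.27 (limma adjusted p = 1.21e-08), and the Notch ligand gene Dl (Delta) had means of 1.80 and 3.38 TPM. The part of progenitor cells in the rises of msn, hep, bsk and puc was not tested. In whole midguts, more cells of a type and more RNA per cell cannot be told apart.

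**Figure D2:**
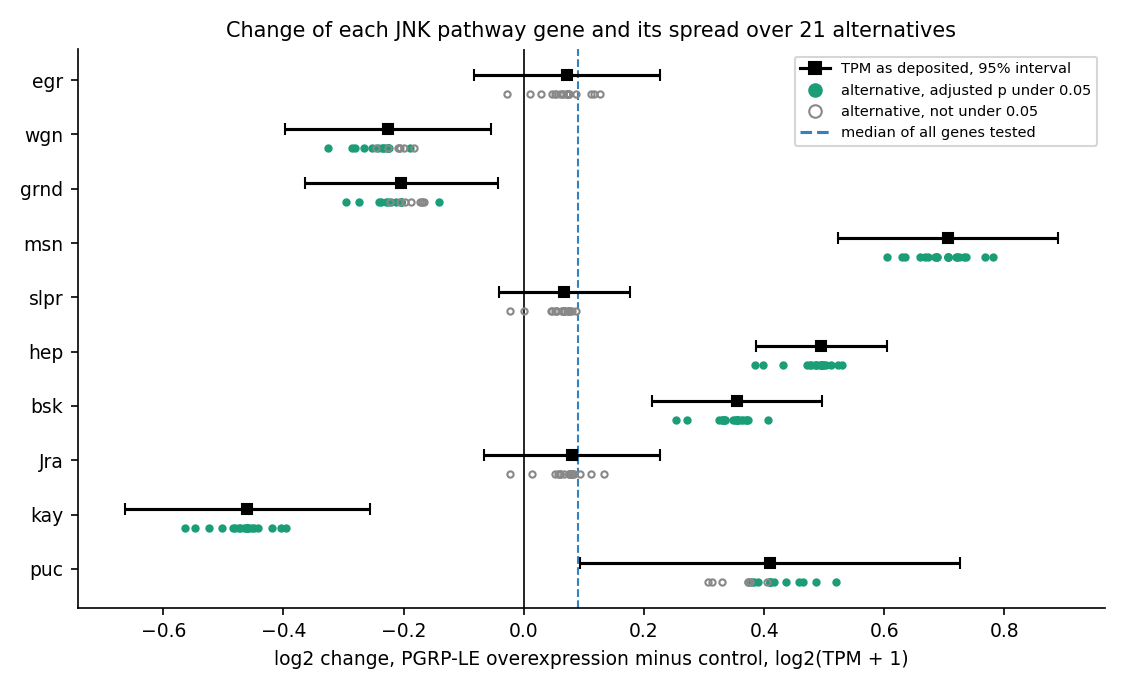
Log2 change of each JNK pathway gene (overexpression minus control, log2(TPM + 1)) with its 95% interval in black, and beneath it the same change under 21 alternatives, filled where the adjusted p was under 0.05. msn, hep, bsk and kay were called under every alternative drawn, wgn, grnd and puc under 13 or 14 of the 21, and egr, slpr and Jra under none.

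At the ligand and its receptors the values pointed down or did not move beyond their spread. egr (FBgn0033483, chromosome 2R, 10078366 to 10084210, plus strand) stood at 19.7, 22.5, 20.0, 19.6 and 18.6 TPM in controls and at 21.0, 20.2, 18.5, 22.3 and 24.0 TPM in overexpression libraries. The groups overlapped almost fully, with a log2 difference of 0.07 and a 95% interval from -0.08 to 0.23 (limma adjusted p = 0.392). wgn (FBgn0030941, chromosome X, 18624042 to 18634908, minus strand) held 23.7, 23.2, 21.6, 22.0 and 19.5 TPM in controls and 17.5, 20.1, 17.7, 16.4 and 21.9 TPM in overexpression libraries. It fell by 0.23 ± 0.08 on the log2 scale (SE; adjusted p = 0.0246, limma), though only 3 of the 5 overexpression libraries lay below every control. grnd (FBgn0032682, chromosome 2L, 18485417 to 18488021, plus strand) held 7.86, 8.99, 9.26, 9.67 and 8.35 TPM in controls and 6.75, 7.73, 6.75, 8.14 and 8.33 TPM in overexpression libraries, again with 3 of 5 below every control. It fell by 0.20 ± 0.07 on the log2 scale (SE; adjusted p = 0.0295, limma).

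Both receptor calls were close to the threshold. Rescaling to the spike-ins ended both (limma adjusted p = 0.0619 for wgn and 0.0540 for grnd), and leaving out single libraries ended each in 5 of 10 cases, with adjusted p up to 0.0612 for wgn and 0.0723 for grnd. Array weights and the omission of replicate 2 from both groups also ended that of grnd, with adjusted p up to 0.0729. The single libraries were control replicates 1 and 2 and overexpression replicates 1, 3 and 4 for wgn, and control replicates 2, 3 and 4 and overexpression replicates 1 and 3 for grnd. Exons of grnd share 275 bases, 13.1% of its exonic length, with kon on the opposite strand. kon lay between 1.18 and 1.90 TPM across controls and at 1.88 to 2.50 TPM in overexpression libraries, and no strand setting of the quantification was found in the sources, so reads from that stretch may not be told apart.

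The AP-1 genes differed from each other. kay (FBgn0001297, chromosome 3R, 29765995 to 29794113, plus strand), the Fos gene, stood at 115.4, 133.4, 107.4, 93.6 and 111.6 TPM in controls and at 69.1, 86.3, 80.3, 79.1 and 91.0 TPM in overexpression libraries. Every overexpression library lay below every control, and kay fell by 0.46 ± 0.09 on the log2 scale (SE; adjusted p = 0.00103, limma), 1.38-fold in the means. Jra (FBgn0001291, chromosome 2R, 10096480 to 10098556, plus strand), the Jun gene, held 81.8, 86.2, 74.4, 73.9 and 77.8 TPM in controls and 71.6, 90.2, 87.9, 84.4 and 83.3 TPM in overexpression libraries. The Jra groups overlapped, with a log2 difference of 0.08 and a 95% interval from -0.07 to 0.23 (limma adjusted p = 0.317). Exons of Jra share 39 bases, 2.38% of its exonic length, with RpLP0-like on the opposite strand. In controls kay was the most abundant member, at 112 TPM, and its range lay above that of Jra, at 78.8 TPM. With overexpression the means were 81.1 TPM for kay and 83.5 TPM for Jra, and their ranges overlapped.

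puc (FBgn0243512, chromosome 3R, 8105332 to 8122294, plus strand), the feedback phosphatase, held 49.0, 62.1, 41.1, 34.6 and 44.9 TPM in controls and 53.0, 66.7, 52.1, 67.4 and 66.7 TPM in overexpression libraries. The groups overlapped because control replicate 2 lay above 2 of the overexpression libraries. puc rose from 46.4 ± 10.3 to 61.2 ± 7.91 TPM (SD, n = 5), a log2 difference of 0.41 ± 0.14 (SE; adjusted p = 0.0276, limma). The call ended under median-of-ratios rescaling (limma adjusted p = 0.0941), under quantile normalization (0.0622), and without any of control replicates 3, 4 and 5 or overexpression replicates 2, 4 and 5, where the adjusted p reached 0.0632. Without control replicate 2 the log2 change was 0.52 (limma adjusted p = 0.00271).

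The order of levels in controls ran from kay and Jra over puc, bsk, msn, wgn, egr, hep and grnd to slpr at 6.57 TPM. Ranges of neighbours in that order overlapped for puc with bsk and for wgn with egr, and the other neighbours lay apart. In overexpression libraries Jra led at 83.5 TPM, followed by kay, puc, bsk, msn, egr, wgn, hep, grnd and slpr at 6.93 TPM. There the ranges overlapped for Jra with kay, bsk with msn, egr with wgn, wgn with hep and grnd with slpr, and the other neighbours lay apart.

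The 10 members had 38 annotated transcripts in the table, of which 23 passed the level for testing. These are estimates that divide shared reads among transcripts of a gene, and their own error is not in the table. hep-RD and hep-RF had equal TPM in every library, as did Jra-RA and Jra-RC, so each of these pairs is 1 measurement. Counted that way, 7 of 21 transcripts rose and 3 fell by limma adjusted over all 15162 transcripts tested. With every row counted, 8 of 23 rose and 3 fell, and 46.2% of all transcripts tested were called.

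Among the tested transcripts of the members, the largest log2 change was that of puc-RB. puc-RB starts 1156 bases downstream of puc-RA, and its annotated protein of 369 residues lacks 321 coding bases that puc-RA, with 476 residues, has. puc-RB held 3.48, 1.62, 1.35, 1.60 and 2.03 TPM in controls and 8.03, 8.59, 6.88, 13.7 and 7.92 TPM in overexpression libraries. The lowest overexpression library lay above the highest control, and the log2 change was 1.74 ± 0.20 (SE; adjusted p = 4.75e-05, limma). puc-RA, the main transcript, held 45.6, 60.5, 39.7, 33.0 and 42.9 TPM in controls and 44.9, 58.2, 45.2, 53.7 and 58.8 TPM in overexpression libraries. puc-RA was not called (log2 change 0.25 ± 0.15 SE, limma adjusted p = 0.188), although its 7.83 TPM made up 52.8% of the difference in puc means and the 7.00 TPM of puc-RB the other 47.2%. Without control replicate 2, puc-RA was called as well (limma adjusted p = 0.0285). The call of puc-RB held under all 18 alternatives run, with log2 changes from 0.99 to 2.14.

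**Figure D3:**
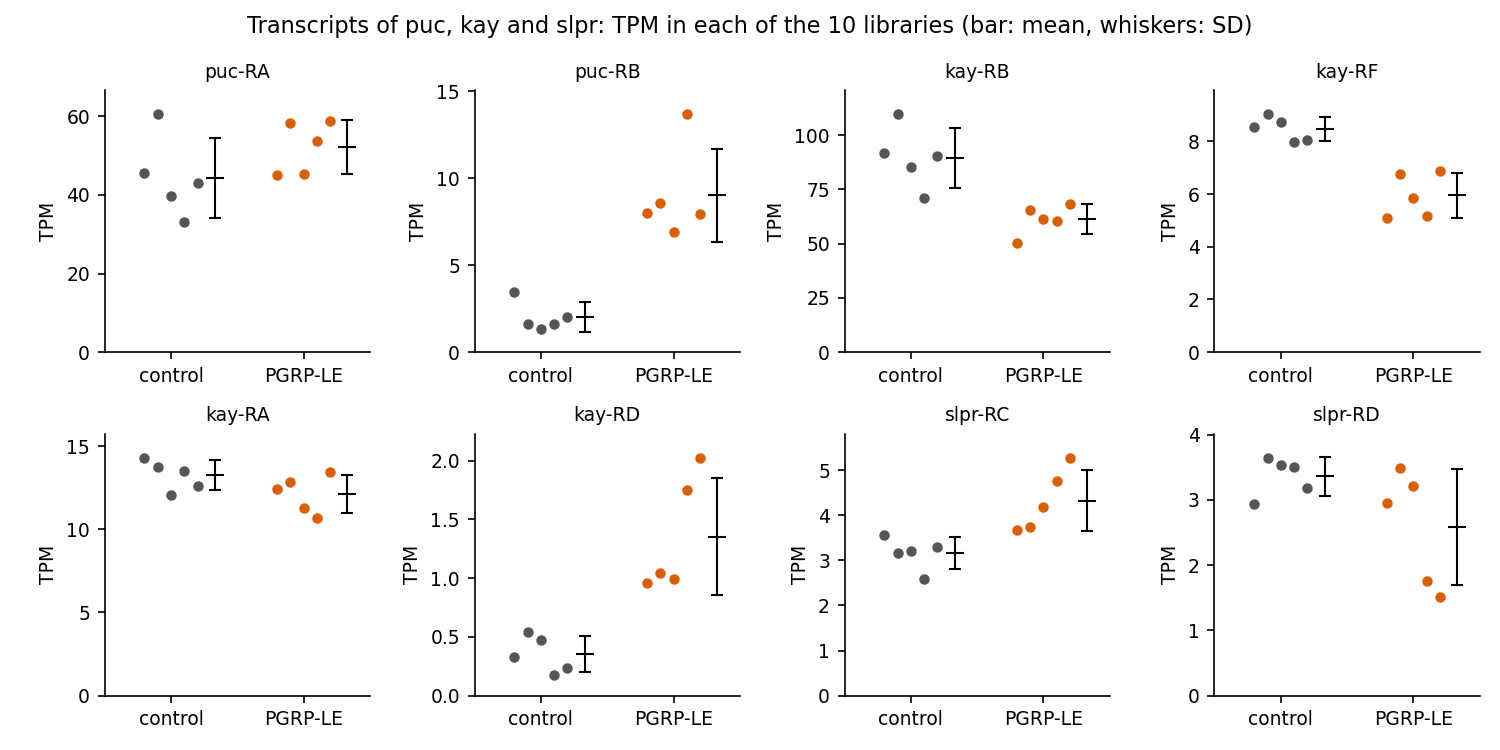
TPM of transcripts of puc, kay and slpr (one panel a transcript, vertical axis from 0) in the 5 control libraries (grey) and the 5 libraries with PGRP-LE overexpression (orange), with the mean and SD beside each group. puc-RB, kay-RD and slpr-RC lie above every control in all 5 overexpression libraries, kay-RB and kay-RF below, and puc-RA overlaps.

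Of the kay transcripts tested, kay-RB and kay-RF fell. kay-RB, the main transcript with 546 residues, held 92.0, 109.7, 85.6, 71.2 and 90.4 TPM in controls and 50.2, 65.6, 61.6, 60.6 and 68.4 TPM in overexpression libraries, and fell by 0.54 ± 0.11 on the log2 scale (SE; adjusted p = 0.00265, limma). kay-RF, which starts 6327 bases downstream of kay-RB, fell from 8.46 ± 0.453 to 5.95 ± 0.842 TPM (SD, n = 5; adjusted p = 0.00160 by limma). kay-RA, which starts 9717 bases upstream of kay-RB, was at 13.2 ± 0.901 and 12.1 ± 1.13 TPM (limma adjusted p = 0.211), and was called lower under median-of-ratios rescaling (limma adjusted p = 0.0240). kay-RD starts the furthest upstream, 16614 bases before kay-RB. It stayed below the level for testing, at 0.333, 0.539, 0.476, 0.177 and 0.237 TPM in controls and 0.956, 1.04, 0.994, 1.75 and 2.02 TPM in overexpression libraries, and its groups did not overlap. kay-RB made up 91.4% of the difference in kay means. Set against the rest of the gene, neither kay-RB nor kay-RA was called by limma on the log2 ratio (adjusted p = 0.0669 and 0.0688). Exact permutation gave an adjusted p of 0.113 for both shares. It cannot decide, since no share of any gene passed adjustment by it (smallest adjusted p 0.0577 over 8087 shares).

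The rise of msn was shared by msn-RA, with 66.7% of the difference in means, msn-RB and msn-RI. msn-RA, whose protein has 1504 residues, went from 17.6 ± 2.55 to 29.5 ± 2.39 TPM (SD, n = 5; adjusted p = 1.05e-04 by limma). msn-RB and msn-RI share 1 coding sequence of 1200 residues, and msn-RB went from 5.70 ± 1.32 to 10.5 ± 2.02 TPM (limma adjusted p = 0.00282). msn-RD was at 2.48 ± 0.232 and 2.19 ± 0.471 TPM (limma adjusted p = 0.367).

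Of the hep transcripts, hep-RD and hep-RF were called. hep-RD and hep-RF, annotated with 1162 and 1153 residues, were each listed at 3.80 ± 0.173 TPM in control and 5.95 ± 0.213 TPM in overexpression libraries (SD, n = 5; adjusted p = 4.63e-05 by limma). hep-RC and hep-RE encode a short form of 492 residues. They were at 1.89 ± 0.462 and 2.27 ± 0.511 TPM for hep-RC (limma adjusted p = 0.333) and at 1.32 ± 0.198 and 1.48 ± 0.183 TPM for hep-RE (limma adjusted p = 0.437). Set against the rest of the gene, hep-RD and hep-RF were not called by limma on the log2 ratio (adjusted p = 0.432). For each of them that rest contains the other at equal TPM, so the ratio cannot decide whether the pair shifted. Exact permutation of the share gave an adjusted p of 0.113 for both, which cannot decide either, as for kay. For bsk, bsk-RB made up 92.7% of the difference in means. bsk-RF and bsk-RE, which start 759 and 901 bases downstream and encode the same protein, stayed below 2 TPM in every library.

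slpr was uncalled as a gene, and of its transcripts slpr-RC was called. slpr-RC ends 450 bases beyond slpr-RD and has the same coding sequence. slpr-RC held 3.56, 3.17, 3.20, 2.58 and 3.30 TPM in controls and 3.68, 3.75, 4.18, 4.75 and 5.27 TPM in overexpression libraries, with no overlap (log2 change 0.35 ± 0.11 SE, limma adjusted p = 0.0192). Median-of-ratios rescaling ended this call, at an adjusted p of 0.0598. slpr-RD held 2.93, 3.64, 3.53, 3.50 and 3.18 TPM in controls and 2.94, 3.48, 3.21, 1.76 and 1.52 TPM in overexpression libraries (limma adjusted p = 0.141). The low slpr-RD values were those of overexpression replicates 4 and 5. kay-RD, below the level for testing, was also highest there, and a link between them was not tested. Set against the rest of the gene, slpr-RC and slpr-RD were not called (adjusted p = 0.101 and 0.0945 by limma on the log2 ratio). Exact permutation of the shares gave adjusted p of 0.113 and 0.0886, which cannot decide, as for kay.

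Shares within a gene do not move with the scaling of libraries. Of 18 transcript shares of at least 10% in 8 members, 9 (identical and complementary transcripts each counted) had an unadjusted p under 0.05 by an exact permutation test of 5 against 5 (two-sided), and 0 passed adjustment over all 8087 shares tested, where the smallest adjusted p was 0.0577. The 18 include Jra-RA and Jra-RC, which split Jra evenly in every library, so their shares could not differ between groups and tested nothing. Identical shares, as of hep-RD and hep-RF, and complementary shares, as of puc, give the same p. The 9 are therefore not independent results. By the unadjusted rule 27.0% of all shares were called, and 0.0% by the adjusted rule. The share of puc-RB was 7.09%, 2.61%, 3.28%, 4.63% and 4.52% of puc in controls and 15.2%, 12.9%, 13.2%, 20.3% and 11.9% in overexpression libraries, with no overlap (p = 0.00794 by exact permutation, the lowest value 5 against 5 allows; adjusted 0.0577). limma on the log2 ratio of a transcript to the rest of its gene, chosen after seeing the data, called 16.0% of the same transcripts. Among the members it called puc-RB with puc-RA, its complement (log2 change of the ratio 1.49 ± 0.23 SE, limma adjusted p = 0.00211), and hep-RE (-0.43 ± 0.10 SE, limma adjusted p = 0.0187). The share of slpr-RC was 48.1% ± 5.16 in control and 62.7% ± 11.8 in overexpression libraries (SD, n = 5; p = 0.0238 by exact permutation, adjusted 0.113).

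**Figure D4:**
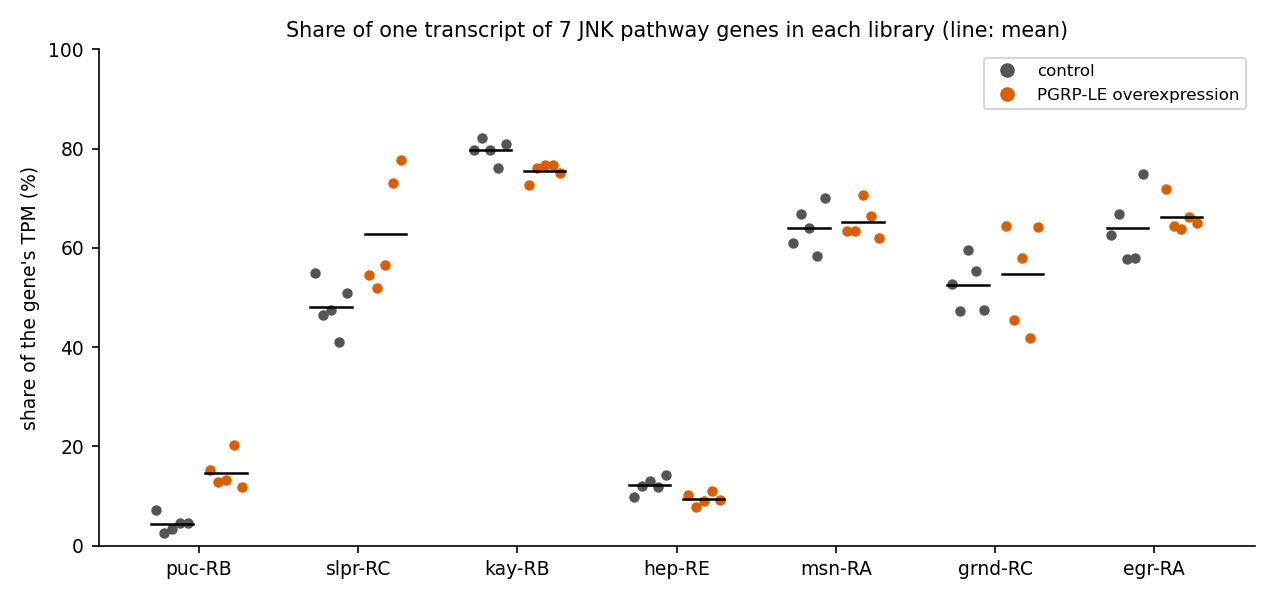
Share of the gene's TPM held by 1 transcript of each of 7 JNK pathway genes (vertical axis in percent, from 0 to 100) in each control library (grey) and each library with PGRP-LE overexpression (orange), with lines at the group means. The shares of puc-RB lie apart, between 2.61% and 7.09% in controls and between 11.9% and 20.3% in overexpression libraries, and those of the other transcripts overlap.

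Within the groups, single libraries were highest for several members at once. Control replicate 2 had the highest level of 6 of the 10 members among controls (egr, msn, slpr, Jra, kay and puc), and overexpression replicate 5 the highest of 6 among its group (egr, wgn, grnd, msn, bsk and kay). Control replicate 2 was also the library with the most Malpighian tubule marker transcripts, and the part of tubule tissue in the member levels was not tested. Without control replicate 2, msn, hep, bsk, kay and puc were still called and wgn and grnd were not. Deviations from the group means on the log2(TPM + 1) scale correlated from r = -0.46 (hep with puc) to r = 0.88 (kay with puc) over the 45 pairs of members, with a median r of 0.26. These are descriptions over 10 libraries whose values share their scaling, and they were not compared with those of other gene pairs. Over all genes tested, the deviations most like those of puc were those of CG5758 (r = 0.99), CG3640 (r = 0.97) and CG4781 (r = 0.96). Their own changes differed from that of puc, with log2 changes of -0.32, -0.65 and 0.08.

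Genes around the chain were read from 5 lists. Of the 18 tested upstream kinases and adaptors, 8 rose and 3 fell, with a median log2 change of 0.11. That is 61.1% called, against 62.9% of all genes tested. Cdc42, a small GTPase, rose from 131 ± 6.76 to 209 ± 4.24 TPM (SD, n = 5; adjusted p = 1.51e-07 by limma), and syd, a scaffold protein gene, from 16.7 ± 0.798 to 24.8 ± 1.57 TPM (limma adjusted p = 3.75e-06). Ask1, a kinase at the level of slpr, fell from 15.4 ± 0.576 to 9.97 ± 0.713 TPM (limma adjusted p = 2.03e-06). At the branch from IMD to JNK, named after their values were seen, imd had means of 16.6 and 23.6 TPM (log2 change 0.48, limma adjusted p = 1.64e-04), Tak1 of 19.8 and 23.1 TPM (0.21, adjusted p = 0.00706) and Tab2, the Tak1 partner, of 24.4 and 19.3 TPM (-0.33, adjusted p = 8.72e-04).

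Of the 8 tested modifiers and inhibitors, 2 rose and 0 fell, with a median log2 change of 0.07. That is 25.0% called, against 62.9% of all genes tested. The risers were ben, a ubiquitin-conjugating enzyme gene, at 85.5 ± 1.91 and 135 ± 4.74 TPM (limma adjusted p = 8.06e-08), and alph, a phosphatase gene, at 58.6 ± 3.18 and 76.4 ± 2.59 TPM (limma adjusted p = 2.38e-05). POSH, a scaffold and ubiquitin ligase gene, was at 4.33 ± 0.252 and 4.78 ± 0.272 TPM (limma adjusted p = 0.0924). Of the 5 partner transcription factors, 1 rose and 1 fell, which is 40.0% called, also below 62.9%. Among them foxo fell from 47.3 ± 1.84 to 29.9 ± 2.86 TPM (limma adjusted p = 3.23e-06). Atf-2, which can pair with Jun, went from 6.40 ± 0.499 to 7.52 ± 0.929 TPM and was called (adjusted p = 0.0432 by limma). The call ended under 13 of 21 alternatives, among them the leaving out of any of control replicates 1 to 4 or of overexpression replicates 2, 3 or 4 (adjusted p from 0.0219 to 0.265 over all 21). Ets21C, an ETS factor known to act with AP-1, was at 8.52 ± 3.24 and 9.72 ± 2.81 TPM (limma adjusted p = 0.543).

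Within these 5 lists, the largest changes were among genes reported elsewhere to respond to JNK, of which 8 of 13 tested rose and 3 fell, with a median log2 change of 0.49. That is 84.6% called, where 40.1% of all genes tested were called higher and 22.8% lower. The count of 8 held under 3 of 21 alternatives and was 6 or 7 under the other 18, with Mmp1, a matrix metalloproteinase gene, the riser nearest the threshold (limma adjusted p = 0.0499). Pvf1, a growth factor gene, held 23.1, 23.0, 20.5, 22.0 and 14.8 TPM in controls and 74.5, 76.4, 69.2, 89.0 and 87.9 TPM in overexpression libraries, a log2 difference of 1.90 ± 0.12 (SE; adjusted p = 1.31e-07, limma). The groups lay far apart. upd3, the cytokine gene, held 3.91, 1.69, 1.72, 1.27 and 0.363 TPM in controls and 3.42, 6.87, 5.37, 6.91 and 5.78 TPM in overexpression libraries, a log2 difference of 1.35 ± 0.31 (SE; adjusted p = 0.00375, limma). Its groups overlapped through control replicate 1 and overexpression replicate 1. The glutathione transferase gene GstD1 rose from 1608 ± 163 to 4919 ± 551 TPM (limma adjusted p = 2.78e-08), the cell death gene rpr from 1.21 ± 0.364 to 3.69 ± 0.764 TPM (limma adjusted p = 3.05e-05), and chic, the profilin gene, from 501 ± 26.8 to 747 ± 37.9 TPM (limma adjusted p = 1.59e-06). The 3 that fell, named after their values were seen, were cher, hid and Thor, with log2 changes of -0.74, -0.71 and -0.68. All of these genes also respond to other inputs, and whether JNK moved them was not tested.

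Of 7 genes of the other MAP kinase cascades, 4 rose and 2 fell, with a median log2 change of 0.23, which is 85.7% called against 62.9% of all genes tested. p38c rose from 32.8 ± 1.74 to 53.8 ± 4.46 TPM (SD, n = 5; adjusted p = 1.66e-06 by limma), rl, the ERK gene, from 49.7 ± 3.85 to 67.0 ± 5.02 TPM (limma adjusted p = 1.52e-04), and Dsor1, the ERK kinase gene, from 17.9 ± 0.797 to 22.2 ± 1.13 TPM (limma adjusted p = 2.55e-04).

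**Figure D5:**
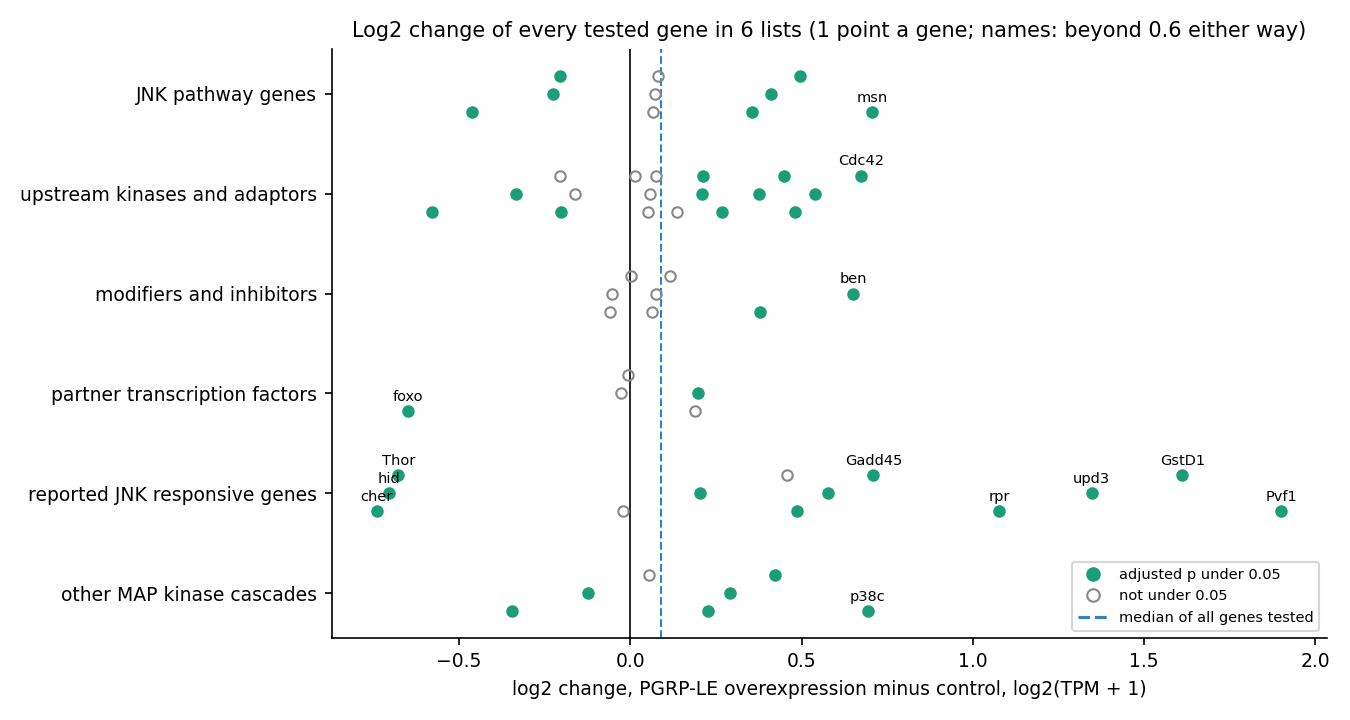
Log2 change (overexpression minus control, log2(TPM + 1)) of every tested gene in 6 lists, 1 point a gene, filled where the limma adjusted p was under 0.05, with names beyond 0.6 either way. The JNK pathway genes lie between -0.46 and 0.71, and the genes reported to respond to JNK reach from -0.74 to 1.90.

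The authors' deposited table lists 10682 genes with a log fold change, read here as log2 although its header names no base, and an accompanying p-value. The members had the same signs there. The authors' values were 0.70 for msn (p = 4.65e-10), 0.53 for hep (p = 4.37e-08), 0.35 for bsk (p = 0.00107) and 0.35 for puc (p = 0.0244). The authors' deposited table gave -0.48 for kay (p = 5.65e-05), -0.24 for wgn (p = 0.0260) and -0.21 for grnd (p = 0.0611). These p-values are printed as deposited, without a statement of their adjustment.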

How the data were processed

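PolyA RNA went into stranded libraries, per the labels. Per the submitters' processing notes, FastQC, Trim Galore, kallisto and edgeR were used with build BDGP6, with no versions or settings. The authors deposited TPM for 31181 rows, 92 of them ERCC spike-ins, and a table of their own comparison, whose title names RUVSeq, giving each gene's log2 fold change (headed without a base) beside its p-value.

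Of 31089 transcript rows, 31048 were found in Ensembl release 115 (assembly BDGP6.54), the source of gene names, coordinates and protein lengths, and were summed per gene. Values were fitted as log2(TPM + 1), a scale that understates changes of low genes, by limma 3.58.1 under R 4.3.3, a two-sided moderated test whose eBayes step used both the trend and the robust option. Genes and transcripts needed at least 1 TPM in at least 5 libraries. p-values were adjusted over all genes or transcripts, also for the shares, and the threshold was 0.05. Single shares were compared by exact permutation tests. The fit was tested on simulated data.

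The members and lists were chosen with earlier results of these data known. Named beside the members were the 3 genes with the smallest p in each list, any called with a log2 change of at least 1, and the 3 genes most like puc. Alternatives covered the pseudocount (0.1 and 5), filters, scaling, weights, a replicate block and omission of libraries. Depth is unknown, so no counting interval is given.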

Additional observations from a re-analysis of the deposited data

Results flagged for a closer look

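Single libraries stood apart in 6 of the 114 groups of 5 values examined, where about 1 in 20 would do so by chance. The highest value lay far above the next for bsk in control replicate 3 (43.8 TPM, next 37.5 TPM), for GstD1 in overexpression replicate 3 (5899 TPM, next 4752 TPM), for mex1 in control replicate 2 (602 TPM, next 505 TPM) and for puc-RB in overexpression replicate 4 (13.7 TPM, next 8.59 TPM). The lowest value lay far below the next for rpr in overexpression replicate 4 (2.35 TPM, next 3.80 TPM) and for egr-RB in control replicate 5 (4.67 TPM, next 7.35 TPM). Without control replicate 3 the log2 change of bsk was 0.41. Without overexpression replicate 4 that of rpr was 1.19. Both stayed past the threshold.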

How the results depend on the processing

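Over 21 alternatives each, msn, hep, bsk and kay kept their direction and their call, with log2 changes from 0.61 to 0.78, 0.38 to 0.53, 0.25 to 0.41 and -0.56 to -0.40. Leaving out 1 library gave 3 or 4 members higher and 1 to 3 lower, the lowest count without control replicate 2 or overexpression replicate 1 or 3, and 0 or 1 partner transcription factors higher. Rescaling to the spike-ins left 1 member lower, 0 partner factors higher and 1 gene of other MAP kinase cascades lower. Median-of-ratios rescaling gave 5 upstream genes lower against 3, 2 modifiers lower against 0 and 0 partner factors higher. It turned the uncalled changes of egr (-0.0274), slpr (-0.0232), Jra (-0.0233) and CG4781 (-0.0206), and quantile normalization that of slpr (-0.00019). Without a filter, with quantile normalization and without replicate 2 of both groups, 0 partner factors were higher. A mean of at least 5 TPM left 7 member transcripts called against 11, since fewer were tested. For the shares, the limma ratio called 3 against 0. The cause of the other moves was not tested.

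Replicate numbers were shared between groups, but only 1 of 5 same-numbered pairs had deviations that correlated above 0.1 (r from -0.23 to 0.57). The numbers were therefore not taken as pairs. The correlated pair was replicate 2 (r = 0.57), the highest r between any control and any overexpression library. The next was 0.39, for control replicate 3 with overexpression replicate 1. With a replicate block, 3173 genes were higher and 1803 lower against 3499 and 1991, wgn was not called (limma adjusted p = 0.0563), 0 partner factors were higher and 1 gene of other MAP kinase cascades was lower. Of 11 member transcripts called, 9 were called under the block, without wgn-RA (limma adjusted p = 0.0972) and slpr-RC (0.0592). In the block form of the shares, 3 shares had 5 same-numbered differences of 1 sign, those of puc-RA, puc-RB and slpr-RD. puc-RA and puc-RB are complements and so 1 measurement. No such count over all shares is given beside it, and the numbers were not taken as pairs. TPM keeps no depth, which limits what can be said of transcripts below 1 TPM.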
